A study of Mus musculus with 2 samples.

Results

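A set of 10 interferon-induced genes was followed in the retinal pigment epithelium (RPE) and the tissue around it, namely Ifi27, Bst2, Lgals3bp, Isg15, Rsad2, Usp18, Xaf1, Rtp4, Ifi35 and Ifi44, out of the 32285 genes counted. They were picked as interferon-induced genes that were higher in RPE cells after doxorubicin (Dox), so their difference between the conditions in RPE cells is what chose them and is given as a description. The label was not met by all of them. In RPE cells taken as a whole, the summed levels of Isg15 and Rsad2 were about the same in both libraries. Rsad2 was so sparse that a rise or a fall stays within counting error. Ifi35 was 1.45-fold higher, just short of the 1.5-fold used here to call a gene higher. RPE cells were the cells with at least 10 UMIs (unique molecular identifiers, 1 per counted RNA molecule) of Rpe65, the isomerase of the visual cycle, and were also split at 1000 UMIs of Serpina3n per 1000000 UMIs of the cell. Serpina3n encodes a secreted protease inhibitor.

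Both groups were male C57BL/6J mice of 3 months of age, 5 mice and 10 eyes pooled into 1 library per condition. The control mice received PBS and the Dox mice 1 µl of Dox at 100 ng/µl under the retina, and the tissue was taken 7 days later. Dox is an anthracycline that poisons topoisomerase II and breaks DNA, and the injection reaches part of the RPE, so a library pools injected and other areas. The RPE, choroid and sclera were dissociated together with papain, dead cells were removed, and the 5′ ends of the RNA were sequenced on the 10x Genomics platform. Both groups were injected, and each condition is 1 library. Effects of Dox, of differences between the injections of the groups and of the library therefore cannot be told apart, and no test between the conditions was possible. Values are UMIs summed over the cells of a class and given per 1000000 UMIs (CPM). Brackets hold exact 95% intervals, which cover counting error only.

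After the limits on cells, 20180 control and 15426 Dox cells were left, of which 1526 and 1630 were RPE cells with a median of 16014 and 18116 UMIs. All 8 RPE markers had UMIs in both, at a summed 102850 CPM in control and 103805 CPM in Dox-RPE cells. Markers listed for every other class were also found in RPE cells. The 8 fibroblast markers summed to 1493 CPM in control and 894 CPM in Dox-RPE cells, the 8 melanocyte markers to 2843 and 1838 CPM, and the 11 macrophage or antigen-presenting cell markers to 380 CPM and 182 CPM, so each of these sums was lower in Dox. The melanocyte markers include Pmel, a melanosome gene that the study reports in RPE cells and as lower there after Dox. Their sum therefore cannot be read as RNA of another class alone. Cell barcodes found in both libraries numbered 441, and 3 of them belonged to RPE cells in both.

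Type I interferons bind a receptor of the IFNAR1 and IFNAR2 chains, JAK kinases at the receptor pass the signal on, and a complex that holds STAT2 and IRF9 binds the interferon-stimulated response element (ISRE) in the promoters of interferon-induced genes. Interferon gamma has its own receptor, and its signal ends at another site, GAS. The products of such genes block steps of virus infection, mark proteins with ISG15, present antigen and limit the signal itself, and the RPE, a pigmented cell layer between the photoreceptors and the choroid that forms the outer blood-retina barrier, is known to respond to interferons.

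The promoter stretches of 5 of the genes are shown as examples of the letters searched. A table of RefSeq promoters on GRCm38.p6, each 250 bases before to 50 bases after the start, held 7 of the 10 genes. The 3 others were Ifi27, Usp18 and Rtp4. The ISRE core searched was GAAANNGAAA, the GAS letters were TTCNNNGAA, and a looser core of interferon regulatory factors was AANNGAAA, all on both strands, and every ISRE core also holds the looser one. The looser core was added after the promoters had been read. The stretches lie at chr4:156200860-156200911 for Isg15, chr8:71537572-71537617 for Bst2, chr12:26456548-26456587 for Rsad2, chr3:151749895-151749980 for Ifi44 and chr11:118401949-118401988 for Lgals3bp, all read from the minus strand, 5′ to 3′. Capitals mark the ISRE core in the first 3 and the looser core in the last 2.
Isg15: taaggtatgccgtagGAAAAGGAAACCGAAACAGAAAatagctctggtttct
Bst2: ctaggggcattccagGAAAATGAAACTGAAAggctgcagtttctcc
Rsad2: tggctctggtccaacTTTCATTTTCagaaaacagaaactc
Ifi44: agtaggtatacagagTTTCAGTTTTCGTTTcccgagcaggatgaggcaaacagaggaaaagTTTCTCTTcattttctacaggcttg
Lgals3bp: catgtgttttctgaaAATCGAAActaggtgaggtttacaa

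Isg15 carried 3 overlapping copies of the ISRE core, Bst2 2 and Rsad2 1 on the opposite strand, so 3 of the 7 promoters held it, against 3.44% of all 32851 promoters of that length. GAS letters stood in 2 of the 7, Bst2 and Ifi35, and in 8.30% of all promoters. The looser core was found in 7 of 7 and in 23.9% of all. Ifi44, Lgals3bp, Xaf1 and Ifi35 held it without an ISRE core, and the stretches of Xaf1 and Ifi35 are not shown. Isg15 and Rsad2 thus held the same core as Bst2. Over all RPE cells, the log2 ratio of Dox over control was 1.02 for Bst2, 0.01 for Isg15 and 0.14 [-0.46 to 0.76] for Rsad2. The RPE cells poor in fibroblast markers come from a split given below, which was added after values had been seen. In them, the log2 ratio was 1.05 for Bst2, 1.60 for Isg15 and 1.05 [0.10 to 2.12] for Rsad2. In the other RPE cells it was 0.87 for Bst2, 0.21 for Isg15 and -0.65 [-1.68 to 0.31] for Rsad2. A match is a run of letters and not a shown binding site.

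The genes lie on chr12:103434211-103440239 (Ifi27), chr8:71534255-71537456 (Bst2), chr11:118392751-118402092 (Lgals3bp), chr4:156199424-156200818 (Isg15), chr12:26442746-26456452 (Rsad2), chr6:121245906-121270917 (Usp18), chr11:72301629-72313733 (Xaf1), chr16:23520291-23614222 (Rtp4), chr11:101448407-101458698 (Ifi35) and chr3:151730922-151749960 (Ifi44) of GRCm38 in the GENCODE annotation. All 10 are protein-coding. Exons of 3 of them overlap those of another gene. Gm45338, on the strand of Rtp4, had 1 UMI in each library's RPE cells, Gm11626, opposite Ifi35, had 1 in control and 0 in Dox, and Gm44148, opposite Usp18, had 40 in control and 44 in Dox.

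In RPE cells, 7 of the 10 genes were at least 1.5-fold higher in Dox, none was lower by that much, and 8 had an interval of the log2 ratio above 0. Of the 12774 genes with at least 50 UMIs over both libraries, 1.66% were that much higher in Dox. The median log2 ratio of the 10 genes was 0.996, against -0.01 over all genes tested. At 2-fold, 5 of the 10 passed, with 0.446% of all genes. The UMIs of the 10 together made up 741 CPM [731 to 752] in control RPE cells against 1450.1 CPM [1437 to 1464] in Dox-RPE cells, with a log2 ratio of 0.97 [0.94 to 0.99]. Since the genes were chosen on this contrast, these counts describe the choice.

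**Figure D1:**
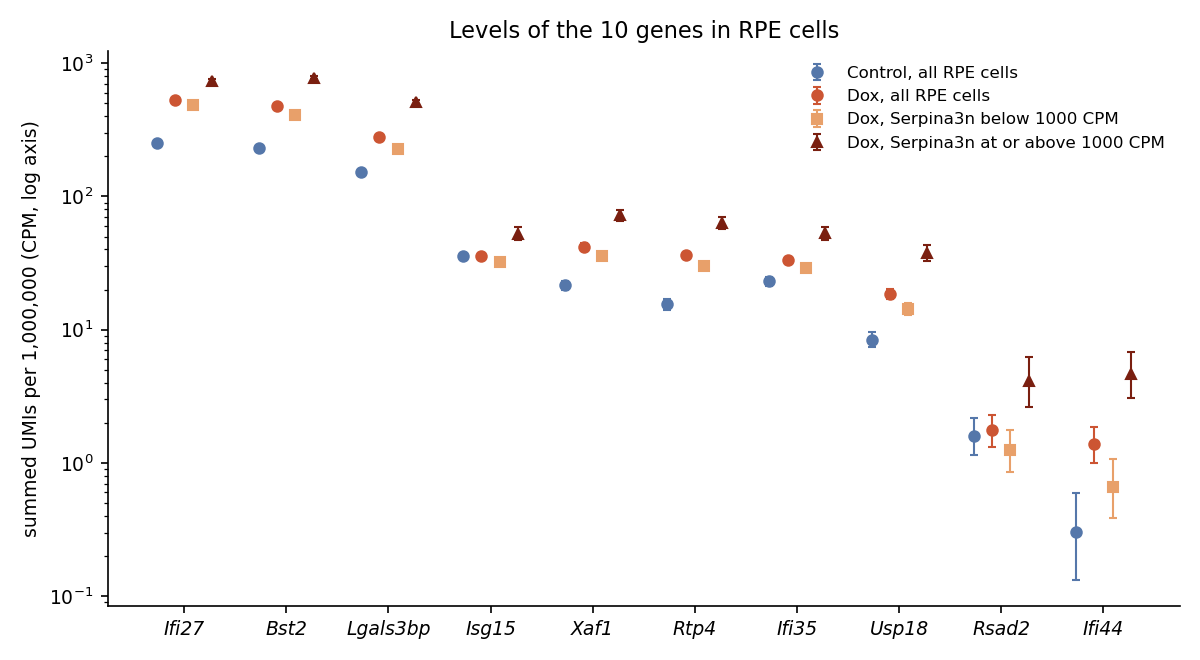
Summed level of each of the 10 genes in RPE cells, in CPM on a log axis, for the control and the Dox library and for Dox-RPE cells below and at or above 1000 CPM of Serpina3n, with exact 95% Poisson intervals as bars. Ifi27, Bst2 and Lgals3bp are the 3 most counted, Isg15 sits at 35.5 and 35.8 CPM in the 2 libraries, and every gene is higher in the Dox cells at or above the cut than in those below it.

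Among the genes that act on viruses, Bst2 and Ifi44 were called higher and Rsad2 was not. Bst2, also called tetherin, holds budding enveloped particles at the cell surface. Its level was 233 CPM [227 to 239] in control RPE cells against 473 CPM [466 to 481] in Dox-RPE cells, with a log2 ratio of 1.02 [0.98 to 1.07]. Ifi44, whose product is a cytoplasmic protein found after interferon, had 8 UMIs in control and 43 in Dox, or 0.304 CPM [0.131 to 0.599] and 1.38 CPM [0.997 to 1.86]. The ratio of 2.18 [1.08 to 3.48] on the log2 scale was the widest in interval of the genes called higher and rests on few molecules. Rsad2 encodes viperin, a radical SAM enzyme that makes a chain-terminating nucleotide. It had 42 and 55 UMIs, 1.60 CPM [1.15 to 2.16] and 1.76 CPM [1.33 to 2.29], and the log2 ratio of 0.14 [-0.46 to 0.76] leaves both a rise and a fall within counting error.

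The ISG15 system gave a split result in RPE cells taken as a whole. Usp18, the protease that takes ISG15 off proteins and also dampens the type I receptor, was at 8.44 CPM [7.36 to 9.62] in control RPE cells against 18.5 CPM [17.0 to 20.03] in Dox-RPE cells, with a log2 ratio of 1.13 [0.90 to 1.36]. Isg15, the ubiquitin-like modifier itself, was at 35.5 CPM [33.3 to 37.9] and 35.8 CPM [33.7 to 37.9], with a log2 ratio of 0.01 [-0.12 to 0.14]. The protease thus differed between the libraries while the modifier, summed over all RPE cells, did not differ by more than its counting error. In the RPE cells poor in fibroblast markers both were higher, Isg15 at 1.60 [1.24 to 1.97] and Usp18 at 1.44 [1.12 to 1.77]. Of the 4 enzymes that attach or handle ISG15, 2 were at least 1.5-fold higher, against 1.66% of all genes. In RPE cells below the Serpina3n cut 0 of 4 were, against 1.05% of all genes, so that count is near the background. Ube2l6, the conjugating enzyme, had a log2 ratio of 0.75 [0.43 to 1.07], which was 2.27 [1.51 to 3.12] in the RPE cells poor in fibroblast markers, and Herc6, the mouse ligase, had 0.87 [0.51 to 1.23]. Over all RPE cells, Trim25, a ligase with further substrates, was at 0.13 [-0.05 to 0.30], and Uba7, the activating enzyme, at -0.39 [-0.99 to 0.21] from 52 and 47 UMIs.

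Both genes linked to mitochondria and cell death were higher. Ifi27, a small hydrophobic protein placed at mitochondrial and nuclear membranes, was at 251 CPM [245 to 257] in control RPE cells against 530.5 CPM [522 to 539] in Dox-RPE cells, with a log2 ratio of 1.08 [1.04 to 1.12]. Xaf1, which binds and opposes the caspase inhibitor XIAP, was at 21.5 CPM [19.8 to 23.4] and 42.1 CPM [39.8 to 44.4], a log2 ratio of 0.97 [0.82 to 1.11]. The intervals of the 2 libraries lay apart for each of these genes. Xiap itself was level, at 41.5 CPM in control against 41.0 CPM in Dox. Ifi27l2a, a relative of Ifi27, had 47.9 and 55.0 CPM, a log2 ratio of 0.20 [0.09 to 0.31], well under that of Ifi27. In the RPE cells poor in fibroblast markers, however, Ifi27l2a was at 1.37 [1.12 to 1.62] and Ifi27 at 1.12 [1.06 to 1.18]. Ifi27l2b had no UMI in RPE cells of either library.

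Lgals3bp, Rtp4 and Ifi35 have other roles. Lgals3bp, a secreted glycoprotein that binds galectins, was at 152 CPM [147 to 156] in control RPE cells against 277 CPM [271 to 283] in Dox-RPE cells, with a log2 ratio of 0.87 [0.82 to 0.93]. Its binding partner galectin-3, Lgals3, went the other way, from 25.2 to 17.8 CPM, a log2 ratio of -0.50 [-0.67 to -0.34], but was level, at -0.02 [-0.26 to 0.22], in the RPE cells poor in fibroblast markers. Rtp4, a chaperone that takes receptors to the cell surface, had 15.5 CPM [14.0 to 17.0] and 36.2 CPM [34.1 to 38.3], and its log2 ratio of 1.22 [1.06 to 1.39] was second to that of Ifi44, which rests on 8 control UMIs. Ifi35, a leucine zipper protein that pairs with NMI, had 23.0 CPM [21.2 to 24.9] and 33.3 CPM [31.3 to 35.4], a log2 ratio of 0.53 [0.39 to 0.68], and so was higher by more than counting error without reaching 1.5-fold. Nmi was at 13.5 and 14.3 CPM, a log2 ratio of 0.08 [-0.12 to 0.28]. Cmpk2, the neighbour of Rsad2, was at 3.88 and 3.72 CPM, a log2 ratio of -0.06 [-0.46 to 0.34].

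The level of Isg15 in RPE cells went with that of fibroblast markers, and the source of the marker RNA in these cells was not tested. Fibroblast-like cells, the largest class, held 336 CPM of Isg15 in control and 373 CPM in Dox, and the RPE level was 10.6% and 9.58% of that. The 8 fibroblast markers stood at 7.05% to 9.43% of their fibroblast-like level in control RPE cells and at 4.86% to 6.38% in Dox-RPE cells, so Isg15 in RPE cells lay close above these shares in control and farther above them in Dox, while Bst2 was at 131% and 258% of its fibroblast-like level. RPE cells were then split at the median of their summed fibroblast marker CPM, a split added after these values had been seen. In the cells under the median, 640 control and 938 Dox cells with 52.7 and 42.8 CPM of fibroblast markers, Isg15 had 78 UMIs in control and 389 in Dox. That is 5.98 CPM against 18.1 CPM, a log2 ratio of 1.60 [1.24 to 1.97]. In the cells at or over the median, 886 control and 692 Dox cells with 2908 and 2775 CPM of fibroblast markers, Isg15 was at 64.5 and 74.8 CPM, a log2 ratio of 0.21 [0.07 to 0.36]. Isg15 thus differed between the libraries where fibroblast markers were scarce and was nearly level where they were abundant. The split was not matched for UMIs per cell, and the part of depth in it was not tested. In 4 equal sets of RPE cells ordered by UMIs per cell, Isg15 was at -0.17 [-0.53 to 0.18] in the shallowest. It was at -0.13 [-0.39 to 0.13] and 0.61 [0.35 to 0.87] in the middle sets and -0.05 [-0.26 to 0.17] in the deepest.

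**Figure D2:**
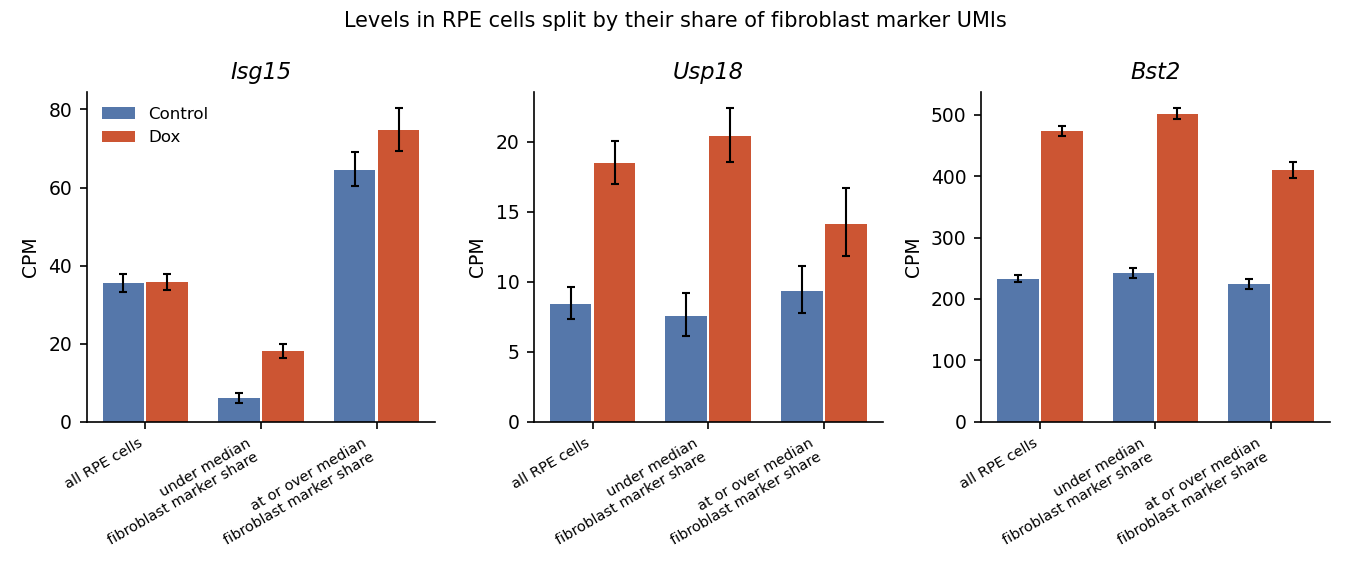
Levels of Isg15, Usp18 and Bst2 in CPM, from 0, in all RPE cells and in RPE cells under and at or over the median summed CPM of 8 fibroblast markers, with exact 95% Poisson intervals as error bars. Isg15 is level between the libraries in all RPE cells and is at 5.98 and 18.1 CPM in the cells under the median, while Usp18 and Bst2 are higher in Dox in each set of cells.

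Under the median, all 10 genes were at least 1.5-fold higher in Dox. This includes all 9 with at least 50 UMIs, the rule behind the 2.33% of 11352 genes that were. The genes were chosen on the RPE contrast and the split was added after values had been seen, so these counts are a description. Rsad2 had 12 and 41 UMIs under the median, a log2 ratio of 1.05 [0.10 to 2.12], and Ifi35 had a log2 ratio of 0.66 [0.46 to 0.86]. Ifi44 had 1 UMI in control and 29 in Dox, a log2 ratio of 4.14 with an interval of 1.54 to 9.49. Of the 7 genes already called higher, Usp18 moved to 1.44, Xaf1 to 1.18 and Ifi44 as given, while Ifi27 at 1.12, Bst2 at 1.05, Lgals3bp at 0.88 and Rtp4 at 1.29 stayed within counting error of their values in all RPE cells. The count of 10 rests in part on the Dox cells at or above the Serpina3n cut, 155 against 7 in control. Without them Isg15 was at 0.78 [0.38 to 1.18], Rsad2 at 0.38 [-0.71 to 1.54], Ifi35 at 0.45 [0.23 to 0.66] and Lgals3bp at 0.58 [0.51 to 0.66], and the last 3 were short of 1.5-fold. The same cells gave Ifi27l2a 12.9 CPM in control against 33.3 CPM in Dox, which gave a log2 ratio of 1.37 [1.12 to 1.62], and Lgals3 18.1 and 17.9 CPM. Leaving out the cells of the highest doublet scores, which left 1193 control and 1441 Dox cells, gave Isg15 16.4 CPM and 24.8 CPM, a log2 ratio of 0.60 [0.41 to 0.79], with the fibroblast markers at 582 and 360.1 CPM. This took out 333 control and 189 Dox-RPE cells, since the number left out was set by the size of each library. The scores called none of the Dox cells a doublet, so they may not mark doublets alike in the 2 libraries.

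Serpina3n split the RPE cells of the Dox library far more than those of the control. Of the control RPE cells, 15 were at or above 1000 CPM, or 0.983% [0.551% to 1.62%], and of the Dox-RPE cells 208, or 12.8% [11.2% to 14.5%]. Within the Dox library, all 10 genes were at least 1.5-fold higher at or above the cut than below it. This includes all 9 with at least 50 UMIs, the rule behind the 4.72% of 11662 genes that were. The split is part of the rule under which these genes were set out, so the counts are a description. The median log2 ratio of the 10 was 1.05 and that of all genes tested -0.18. The values nearest the fold were those of Ifi27, with 486 CPM below and 733 CPM at or above the cut, 1.51-fold, and of Isg15, with 32.1 and 52.6 CPM, 1.64-fold. Lgals3bp was at 226 and 515 CPM, a log2 ratio of 1.19 [1.12 to 1.25], Usp18 at 14.2 and 37.9 CPM, a log2 ratio of 1.41 [1.16 to 1.66], and Ifi44 at 0.663 and 4.67 CPM, 7.04-fold from 17 and 26 UMIs. Cells at or above the cut were also deeper, with a median of 28244 against 16608 UMIs, and held 333 against 1015 CPM of fibroblast markers and 1954 against 5499 CPM of Rpe65.

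The genes were chosen on the RPE contrast and the split is part of the rule, so the values that follow are a description as well. They give the difference from control without the cells at or above the cut. Below it, 1511 control and 1422 Dox cells, 6 of the 10 genes were at least 1.5-fold higher in Dox, or 5 of the 9 with at least 50 UMIs, against 1.05% of 12617 genes with that many, and the summed level went from 742 to 1262 CPM, a log2 ratio of 0.77 [0.74 to 0.79]. Ifi27 was at 252 and 486 CPM, a log2 ratio of 0.95 [0.91 to 0.99], and Rtp4 at 15.4 and 30.2 CPM, a log2 ratio of 0.98 [0.80 to 1.15]. Lgals3bp fell just short of the call, at 1.49-fold, and Ifi44 passed it with 8 and 17 UMIs and an interval that holds 0. At or above the cut, 8 of 10 passed, or 7 of the 8 with at least 50 UMIs, the rule behind the 16.5% of 7669 genes that did. Rsad2 passed on 1 and 23 UMIs, with an interval of -1.72 to 6.27, and the control side was 15 cells with 325 UMIs of the 10 genes. There Isg15 was at 75.1 CPM in control, from 34 UMIs, against 52.6 CPM in Dox, which gave a log2 ratio of -0.51 [-1.03 to 0.04], with fibroblast markers at 1455 and 333 CPM. Ifi44 had no UMI in those control cells, whose 3-UMI floor of 6.63 CPM was above its Dox level of 4.67 CPM, so no ratio is given.

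Over finer steps of Serpina3n, the Dox level of the 10 genes rose with it and the control level did not. In control, the summed level was 735 CPM in the 1294 cells with no Serpina3n UMI, 776 CPM above 0 and below 300 CPM, 759 CPM from 300 to 1000 CPM and 759 CPM from 1000 to 3000 CPM, with 36 and 9 cells in those last 2 steps, and 646 CPM in the 6 cells at 3000 CPM or more. In Dox, it was 1206 CPM in 780 cells without a Serpina3n UMI, 1282 CPM in the 539 cells below 300 CPM, 1661 CPM in 103 cells from 300 to 1000 CPM, 2296 CPM in 64 cells from 1000 to 3000 CPM and 2321 CPM in 144 cells at 3000 CPM or more. Dox-RPE cells without a Serpina3n UMI stood above their control counterparts, with intervals of 1188 to 1225 CPM and 724 to 747 CPM. Since the genes were chosen on the RPE contrast, that is a description too. The step of 300 to 1000 CPM, just outside the cut, held shallow cells in Dox, with a median of 5999 UMIs. Lgals3bp followed these steps from 214 to 532 CPM, and Ifi27 from 480.1 to 769 CPM in the step from 1000 to 3000 and then 721 CPM.

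**Figure D3:**
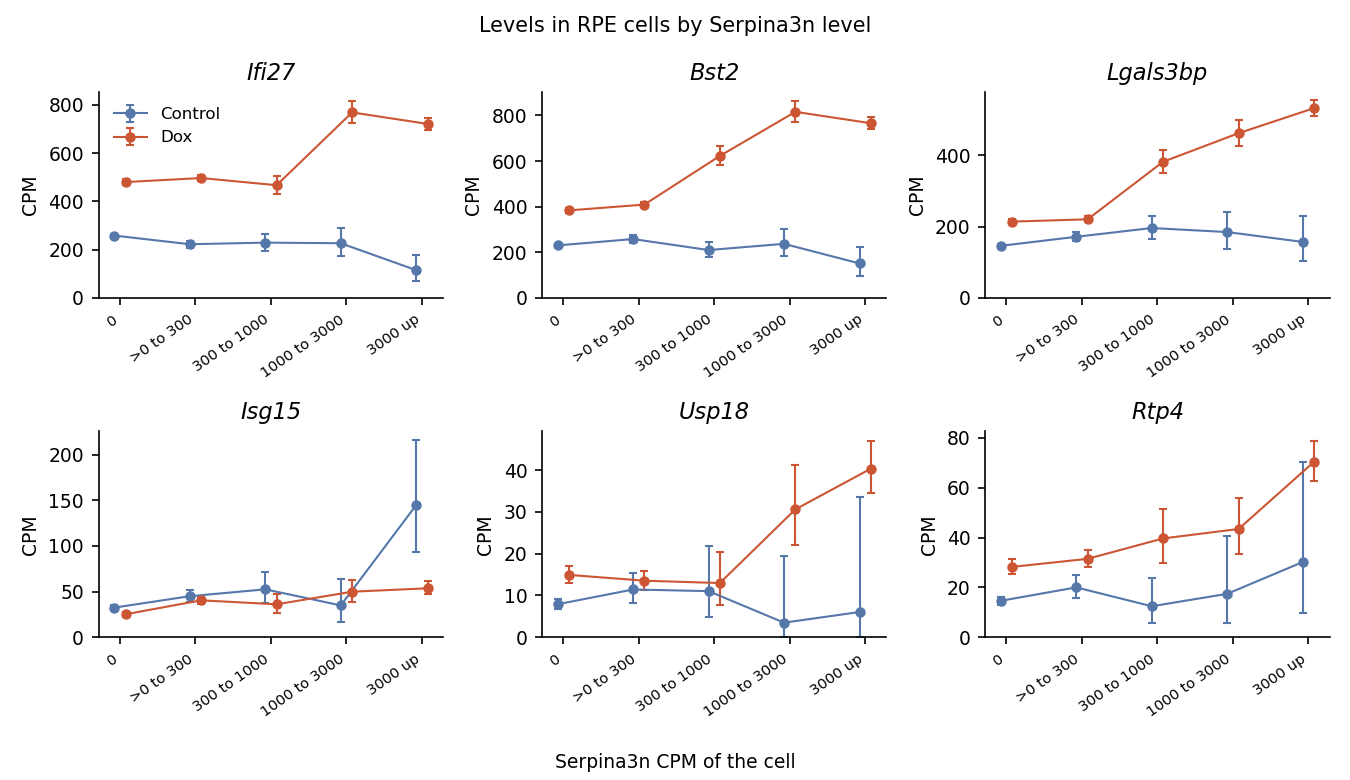
Levels of Ifi27, Bst2, Lgals3bp, Isg15, Usp18 and Rtp4 in CPM, from 0, over 5 steps of the cell's Serpina3n CPM, for control and Dox-RPE cells with exact 95% Poisson intervals as bars. Lgals3bp climbs over the Dox steps from 214 to 532 CPM, and the last 2 control steps hold 9 and 6 cells, which is seen in their wide bars, that of Isg15 at 145 CPM included.

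In the cells under the median of fibroblast markers, Isg15 showed the same order as the others within Dox, at 10.3 CPM in 783 cells below the Serpina3n cut and 49.4 CPM in 155 cells at or above it. The 633 control cells below the cut held 6.01 CPM. Without the split on fibroblast markers, the Dox values had been 32.1 and 52.6 CPM.

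Per cell, the summed level was higher in Dox at the low end, the middle and the high end of the RPE cells. The genes were chosen on the RPE contrast, no single cell was called higher and depth was not matched, so this is a description. The median cell had 603 CPM of the 10 genes in control and 1019 CPM in Dox, the lowest 10% of cells were under 177 and 348 CPM, and the highest 10% above 1287 and 2485 CPM. Of the Dox-RPE cells, 75.03% lay above the control median, 72.2% of those below the Serpina3n cut and 94.7% of those at or above it. By definition, 50% of the control RPE cells did. The 10% of cells richest in these genes held 23.7% of their UMIs in control and 31.3% in Dox. These cells also held 10.3% of all UMIs of the RPE cells in control and 14.1% in Dox. The higher share in Dox thus goes with a higher share of all UMIs. Of those Dox cells, 45.4% were at or above the Serpina3n cut.

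**Figure D4:**
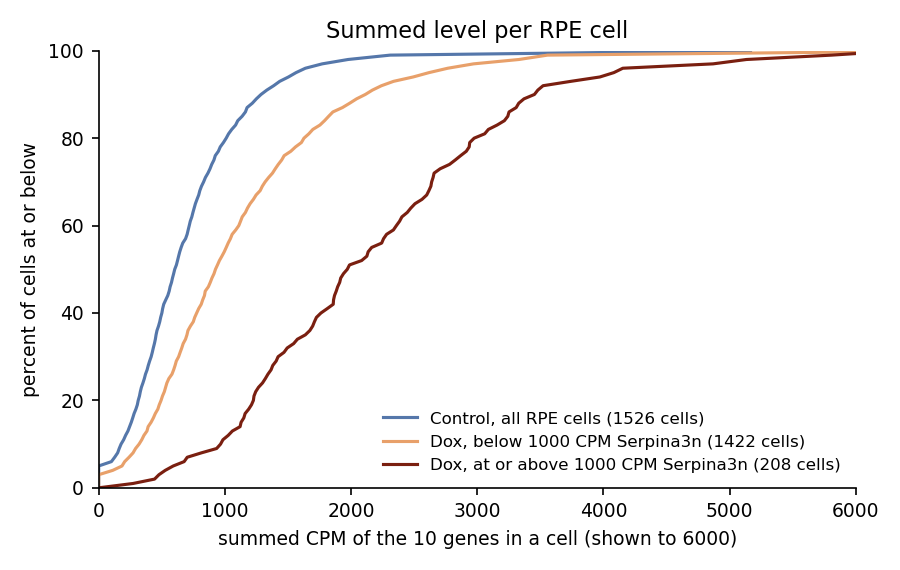
Percent of RPE cells at or below a given summed CPM of the 10 genes per cell, shown to 6000 CPM, for all control RPE cells and for Dox-RPE cells below and at or above 1000 CPM of Serpina3n. The medians are 603 CPM in control against 926 CPM in Dox below the cut, and the curve of Dox cells at or above the cut lies farthest right.

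With each cell thinned to 5000 UMIs, which left out 186 control and 202 Dox cells below that depth, the median number of the 10 genes found in a cell was 2 in control, 3 in Dox and 4 in Dox cells at or above the cut. Ifi27 was found in 60.5% of thinned control and 77.1% of thinned Dox cells (77.0% and 86.6% unthinned), and Usp18 in 3.73% and 7.14% (10.6% and 22.0% unthinned). All classes of cells held UMIs of these 2 genes, so no class gives their share from free RNA alone. In 4 equal sets of RPE cells ordered by UMIs per cell, the summed log2 ratio was 0.60 [0.49 to 0.71] in the shallowest, 0.63 and 0.86 in the middle sets, and 1.07 [1.04 to 1.11] in the deepest, where Dox had 481 cells and control 308. Cells at or above the Serpina3n cut were deeper as well, and the part of depth in the result was not tested.

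Outside the RPE, the sum of the 10 genes was nearly level between the libraries. In fibroblast-like cells, 12702 control and 9712 Dox cells, none of the 10 was 1.5-fold higher, where 1.39% of 14174 genes were, and their sum went from 1067 to 1158 CPM, a log2 ratio of 0.12 [0.10 to 0.13]. The 8 RPE markers in these cells stood at 4401 CPM in control against 6425 CPM in Dox. Of the 10 genes, 5 had intervals above 0. Their log2 ratios were 0.21 [0.16 to 0.26] for Lgals3bp, 0.15 [0.12 to 0.18] for Isg15 and 0.14 [0.11 to 0.17] for Ifi27. Rtp4 was at 0.09 [0.02 to 0.16] and Bst2 at 0.043 [0.004 to 0.081]. The summed log2 ratio was 0.08 [0.03 to 0.14] in melanocyte-like cells, 0.10 [0.04 to 0.16] in macrophage or antigen-presenting cell-like cells and -0.13 [-0.25 to -0.01] in endothelial-like cells, and its interval held 0 in T or NK-like, smooth muscle or pericyte-like and Schwann-like cells and in 1 unnamed cluster led by Snhg7os. Whether the RPE differed from these classes was not tested, since the genes were chosen on the RPE.

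**Figure D5:**
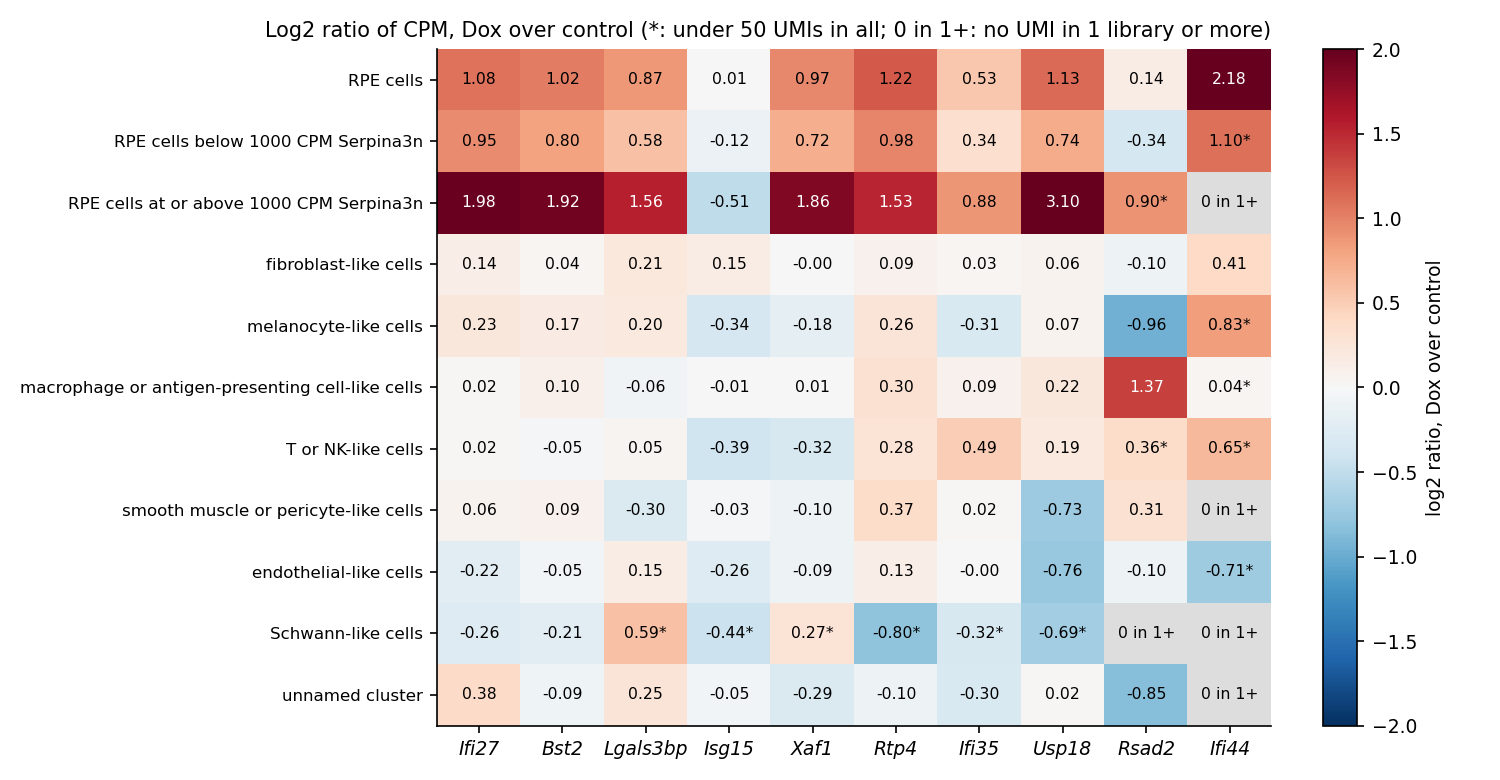
Log2 ratio of CPM, Dox over control, for each of the 10 genes (columns) in RPE cells, in RPE cells on either side of the Serpina3n cut and in 8 other classes of cells (rows), with colours from -2 to 2 and asterisks where a gene had under 50 UMIs over both libraries. The RPE rows hold most of the large positive values, and Rsad2 in macrophage or antigen-presenting cell-like cells, at 1.37, is the one large positive value with at least 50 UMIs outside them.

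Rsad2 and Isg15 each differed in direction between the classes. Macrophage or antigen-presenting cell-like cells held 131 UMIs of Rsad2 in 985 control cells and 197 in 581 Dox cells. That is 25.4 against 65.6 CPM and a log2 ratio of 1.37 [1.04 to 1.70]. In melanocyte-like cells it was at 21.7 CPM in control against 11.1 CPM in Dox, which gave a log2 ratio of -0.96 [-1.58 to -0.39]. RPE cells had the lowest Rsad2 level of all classes in control and, but for Schwann-like cells with no UMI, in Dox. Isg15 was lower in Dox in melanocyte-like cells, at -0.34 [-0.50 to -0.17], and in T or NK-like cells, at -0.39 [-0.66 to -0.13]. In endothelial-like cells Isg15 was at -0.26 [-0.52 to -0.02], and in fibroblast-like cells it was higher, at 0.15 [0.12 to 0.18]. Melanocyte-like cells were shallow in the Dox library, with a median of 765 against 1189 UMIs, and held 1435 against 521 CPM of Rpe65.

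The rank of the RPE among the 9 classes changed for several of the genes. For Ifi27, control RPE cells stood behind Schwann-like, melanocyte-like and fibroblast-like cells, at 451, 316 and 290 CPM [285 to 294], and Dox-RPE cells stood first, ahead of Schwann-like cells at 376 CPM [272 to 506] with no overlap of the intervals. For Bst2 they moved from the fifth place, where their interval overlapped that of Schwann-like cells above, to the second, behind melanocyte-like cells at 537 CPM. Lgals3bp was highest in RPE cells in both libraries, but in control its interval overlapped those of macrophage or antigen-presenting cell-like cells at 148 CPM and melanocyte-like cells at 146 CPM. Isg15 was lowest in RPE cells in both, the next class above being T or NK-like cells at 180 CPM [162 to 199] in control and 137 CPM in Dox. Usp18 was likewise lowest in control RPE cells, at 8.44 CPM against 13.7 CPM in smooth muscle or pericyte-like cells, and in Dox its interval overlapped those of its neighbours in the order, T or NK-like cells at 18.8 CPM and endothelial-like cells at 17.0 CPM. For Xaf1, the interval of Dox-RPE cells, at 42.1 CPM, overlapped those of Schwann-like cells above it and of the unnamed cluster, macrophage or antigen-presenting cell-like and endothelial-like cells below it, which stood from 36.6 to 41.3 CPM. Ifi35 and Rtp4 stayed in the lower part of the order, and Ifi44 was highest in endothelial-like cells, with 14 UMIs in control and 4 in Dox.

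Interferon genes themselves were next to absent from RPE cells. Of 10 interferon ligands searched, Ifng had 3 UMIs in control and 1 in Dox-RPE cells and the others none, which with the 3-UMI floor allows up to 0.114 CPM in control against 0.0962 CPM in Dox. In macrophage or antigen-presenting cell-like cells, Ifnb1, the type I interferon beta, had 119 UMIs in 31 of 985 control and 25 UMIs in 10 of 581 Dox cells. In T or NK-like cells, Ifng had 159 UMIs in 83 of 427 control and 75 in 47 of 253 Dox cells. Ifna2 had 6 UMIs in 1 control cell of the first class. No ligand had more UMIs in Dox than in control in either class, but both classes had fewer cells in Dox.

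Of 6 receptor genes, 5 had at least 50 UMIs in RPE cells, and none of the 5 reached 1.5-fold in either direction, which is near the background of 1.66% of all genes higher and 4.92% lower. Ifnar2 had a log2 ratio of 0.08 [-0.01 to 0.17], Ifnar1 0.21 [-0.03 to 0.45], and the interferon gamma chains Ifngr1 -0.30 [-0.47 to -0.13] and Ifngr2 0.21 [0.02 to 0.40]. Il10rb, shared by interferon lambda and other cytokines, was at -0.53 [-0.71 to -0.35]. In the cells under the median of fibroblast markers, Ifnar2 was at 0.19 [0.06 to 0.31] and Ifnar1 at 0.38 [0.05 to 0.73]. There Ifngr1 was at -0.07 [-0.33 to 0.19], Ifngr2 at 0.32 [0.06 to 0.59] and Il10rb at -0.40 [-0.66 to -0.15].

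Among the signalling genes, the factors Stat2, Irf9 and Irf7 were at least 1.5-fold higher, as were 1.66% of all genes. The log2 ratios were 0.73 [0.56 to 0.90] for Stat2, 0.83 [0.669 to 0.998] for Irf9 and 1.48 [1.27 to 1.70] for Irf7. The kinases were not higher, with Jak1 at -0.22 [-0.34 to -0.09], Jak2 at 0.00 [-0.27 to 0.27] and Tyk2 at -0.27 [-0.68 to 0.13]. Irf1 and Socs1, targets of interferon gamma signalling among others, were at -0.31 [-0.39 to -0.24] and -0.38 [-0.55 to -0.21]. In the cells under the median of fibroblast markers these 2 were at 0.05 [-0.21 to 0.30] and 0.27 [-0.23 to 0.78], and Irf7 at 2.06 [1.71 to 2.44]. Of the kinases, Jak1 was at -0.09 [-0.27 to 0.10] in those cells, Jak2 at 0.25 [-0.14 to 0.66] and Tyk2 at -0.06 [-0.67 to 0.56].

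Of 42 further interferon-stimulated genes in the files, 36 had at least 50 UMIs in RPE cells, and 12 were at least 1.5-fold higher and 4 that much lower in Dox, with a median log2 ratio of 0.46, where 1.66% of all genes were higher and 4.92% lower. Below the Serpina3n cut, 7 of 36 were higher and 2 lower, with a median of 0.16, where 1.05% of all genes were higher and 3.87% lower. The 4 highest were Gbp3, a guanylate-binding protein, at 1.58 [1.44 to 1.73], Ifit3, which binds foreign RNA with its relatives, at 1.38 [1.298 to 1.459], Tap1, the peptide transporter of antigen presentation, at 1.28 [0.92 to 1.65], and Ifit3b at 1.21 [1.08 to 1.35]. The 4 lowest were Phf11d at -1.27 [-1.90 to -0.65], Sp100 at -0.97 [-1.73 to -0.24], the chemokine Cxcl10 at -0.74 [-0.86 to -0.61] and Slfn5 at -0.72 [-1.11 to -0.34]. In the cells under the median of fibroblast markers, 30 of these genes had at least 50 UMIs. Of the 30, 19 were higher, against 2.33% of all genes, and 1 was lower. That was Cxcl10, at 2.45 and 1.40 CPM from 32 and 30 UMIs. In fibroblast-like cells, where 1.39% of all genes were higher, 0 of 39 such genes were higher and 1, Trim30a, was lower, a share near the background.

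Across the 18 groups of 9 classes and 2 libraries, the genes outside these lists whose log2 level was most like that of the sum of the 10 were Atp6ap1, with a Pearson r of 0.83, Magt1 with 0.82, Mcoln1 with 0.77, Naglu with 0.76 and Glmp with 0.76, out of 12675 genes compared. The 18 groups share 2 libraries and their depth. The 10 genes themselves ranged from Isg15 at -0.01 to Bst2 at 0.87, with Ifi27 and Lgals3bp both at 0.45. Each of them is part of the sum it was compared with, so its r is not independent of that sum.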

How the data were processed

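Single-cell RNA was measured in 1 library per condition. Reads were mapped by the authors to mm10, and they deposited filtered matrices of UMI counts per gene and cell, not normalised. The file header names Cell Ranger 4.0.0, and the study's methods name that version and a later one. Reads that match several genes are dropped at that step, which can lower genes with close copies, and the depth of each library is the deposited count, 117731270 UMIs in 20381 control cells and 103997248 UMIs in 15649 Dox cells. The limits for a cell were more than 500 UMIs, between 200 and 6000 genes, more than 0.8 in complexity (log genes over log UMIs) and less than 0.2 of UMIs from mitochondrial genes.

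The genes and gene lists were chosen with earlier results of these data known, and the authors' own gene lists were not used. Cells were clustered with Seurat 5.3.0, SeuratObject 5.2.0 and sctransform 0.4.2 in R 4.3.3, with 3000 features selected and 2948 used (genes of the lists left out), 40 components and a resolution of 0.1. Classes were named from fixed markers by a rule set after the clusters had been seen. It asked for 3 markers at 10 CPM or more, markers raised on average over the other clusters, and a marker among the 10 leading genes at 50 CPM or more. The fibroblast-like clusters had no marker among their leading genes. They were named by a further rule, that their summed fibroblast markers stood above those of every cluster best matched by another class. RPE cells were set by Rpe65 whatever their cluster, and 85.6% of control and 84.8% of Dox-RPE cells fell in the RPE-like cluster. Doublets were kept. Scrublet in scanpy 1.11.5 called 9.62% of control cells and 0 of 15426 Dox cells, so it did not work there, and an alternative left out the 3258 and 1904 highest scores, at 0.8% per 1000 cells.

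UMIs were summed per class and library in Python 3.11.15 (pandas 2.3.3, scipy 1.17.1, numpy 2.4.6) and drawn with matplotlib 3.10.9. Levels carry exact Poisson intervals, ratios exact conditional binomial intervals and shares Clopper-Pearson intervals, all at 95% and for counting error only. A gene was tested for its fold with at least 50 UMIs over both libraries, a floor is 3 UMIs, and no p-value was computed. edgeR 4.0.16 served only for TMM scaling of the counts as an alternative. The text names all 10 genes, each gene with at least 50 UMIs from lists of up to 10 genes, the 4 highest and 4 lowest of the other interferon-stimulated genes and the 5 genes of the likest profile. Genes named beyond that rule were chosen after their values were seen, and 1 gene that the rule names is not reported here. The ratio script was checked on simulated counts.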

Additional observations from a re-analysis of the deposited data

Results flagged for a closer look

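Ifi35 had opposite signs in RPE and melanocyte-like cells, and the difference between them was not tested. It was higher in Dox-RPE cells, with a log2 ratio of 0.53 [0.39 to 0.68], and lower in melanocyte-like cells, at -0.31 [-0.61 to -0.02], from 355 UMIs (59.7 CPM) in control and 134 UMIs (48.1 CPM) in Dox. The melanocyte-like cells had a median of 1189 UMIs in control and 765 in Dox, and 521 and 1435 CPM of Rpe65, whose part in the result was not tested.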

How the results depend on the processing

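The 10 genes of the RPE were each recomputed under 14 alternatives, and of these 140 values 114 moved by less than counting error, 26 by more, and none of the called values changed sign. The lowest and highest log2 ratios were -0.07 and 1.60 for Isg15, -0.35 and 1.05 for Rsad2 and 0.75 and 1.08 for Bst2. The number at least 1.5-fold higher stayed at 7 under the other limits on cells and scalings, was 9 without the highest doublet scores and 10 under the median of fibroblast markers, and 5 at 2-fold. The log2 ratio of the sum in RPE cells, 0.97, was 0.70 with at least 3 Rpe65 UMIs, 0.94 with 1000 CPM of Rpe65 as well, 1.0001 in the RPE-like cluster, 1.01 without the highest doublet scores, 1.05 under the median of fibroblast markers, 0.84 as the mean of the cells' own CPM, 0.86 with cells thinned to 5000 UMIs and 1.01 with no limits on cells. Below the Serpina3n cut, 0.77 became 0.55 with at least 3 Rpe65 UMIs, 0.80 in the cluster, 0.83 under the fibroblast median, 0.67 as the cell mean, 0.68 thinned and 0.81 with no limits. At or above it, 1.69 became 1.86 with 1000 CPM of Rpe65, 1.87 without doublet scores, 1.88 without cells of 5 or more immune marker UMIs and 2.12 under the fibroblast median. Between the Dox groups, 0.87 became 0.84 with 1000 CPM of Rpe65, 0.83 in the cluster, 0.91 without immune marker cells, 0.83 under the fibroblast median, 0.98 as the cell mean, 1.02 with TMM, 1.06 centred on all genes, 0.995 thinned and 0.84 with no limits. In fibroblast-like cells, 0.12 became 0.10 without doublet scores, 0.14 as the cell mean and 0.16 thinned to 1000 UMIs. The causes of these shifts were not tested. The share of all genes at least 1.5-fold higher in RPE cells, 1.66% at 50 UMIs, was 4.29% at 10 UMIs and 0.853% at 200 UMIs. No paired analysis was possible because each condition has 1 library, and no replicate could be left out. Depth limits Rsad2, with 42 and 55 UMIs in RPE cells, and Ifi44, with 8 and 43.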
